A study of Rattus norvegicus with 6 samples.

Results

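Jun, Fos, Egr1, Atf3 and Myc are transcription factors that injured tissue switches on, and they were examined as a set of 5 genes in injured rat facial nerve. The members were chosen by gene ID: Jun is ENSRNOG00000026293, Fos is ENSRNOG00000008015, Egr1 is ENSRNOG00000019422, Atf3 is ENSRNOG00000003745 and Myc is ENSRNOG00000004500. The deposited table lists 30562 gene IDs, and all 5 members were among the 15581 that passed the filter on low counts. The pairing of these IDs with symbols came with the definition of the set, since the deposited table gives IDs alone.

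RNA came from facial nerve tissue of wild type rats on day 14 after injury. One group, FNI, is the facial nerve injury model, with 3 libraries, and the other, C-Gel-light, is injured nerve that was also treated, with 3 libraries. The series title ties the treatment to a Chlorella hydrogel that makes oxygen in light. Both groups carry the injury. Intact nerve and nerve given only gel or only light were not analysed here. A value below therefore says how treated injured nerve compared with injured nerve, not how far either stood from intact nerve. The labels used here give no age or sex. They also do not say which libraries stem from different animals, and p-values then cover the spread of these libraries alone, which may be technical.

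Jun and Fos proteins pair through leucine zippers to form AP-1, a dimer that binds DNA and can activate many genes. Atf3 belongs to the related ATF/CREB family, is induced by stress and axon injury, and can pair with Jun. Egr1 is a zinc finger factor and, like Fos, an immediate-early gene, whose transcription starts within minutes of a signal through MAP kinases and serum response factor. Myc pairs with Max and drives growth and ribosome production. In injured nerve Jun is known as a main driver of the repair Schwann cell, the state into which myelinating Schwann cells turn after axon loss, and Atf3 is a common marker of injured neurons and of Schwann cells that lost their axon.

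Across the groups the estimated changes of the members differed in sign. Whether the members differed from each other is not decided by the calls below. Egr1 rose with C-Gel-light, 2.36-fold, and was the 1 member of 5 that passed the test at an adjusted p under 0.05 (edgeR quasi-likelihood test, adjusted over all 15581 tested genes). Among all tested genes 14.8% passed in either direction and 7.07% were higher, so 1 of 5 is near the background. Fos had a fold of similar size, 2.53, without passing. Jun, at 0.798-fold, Atf3, at 0.731-fold, and Myc, at 1.43-fold, did not pass either. Levels of RNA in whole tissue do not tell fewer cells of a type from less RNA per cell, and this holds for every value below.

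All 5 genes were well measured. Their counts ran from 542 for Myc in C-Gel-light replicate 2 to 20129 for Egr1 in C-Gel-light replicate 3, out of library totals of 22957382 to 28997855. Counting error alone was therefore 0.705% to 4.3% of a value, far under the spread between libraries described below. Values are given as CPM, the usual depth-scaled counts, after TMM scaling, which corrects library totals for differences in composition. Over all genes 1101 were called higher and 1200 lower with TMM, against 645 and 3292 with library totals. The median log2 fold change of tested genes was -0.01 with TMM and -0.26 with library totals.

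Egr1 was the member whose groups were separated in TMM-scaled CPM, though not in the deposited FPKM, where C-Gel-light replicate 1 had 106.9 and FNI replicate 1 had 107.8. Its level was 384.5, 502.8 and 818.1 CPM in C-Gel-light replicates 1 to 3. In FNI replicates 1 to 3 it was 310.3, 236.7 and 175.6 CPM. The lowest C-Gel-light library thus exceeded the highest FNI library, which was so for 18.2% of all tested genes. The means were 568.5 ± 224.1 and 240.9 ± 67.5 CPM (SD, n = 3 per group). The log2 fold change was 1.24 (SE 0.32, 95% interval 0.48 to 1.99, edgeR adjusted p = 0.045), while the two-sided exact permutation test gave p = 0.1, the smallest that 3 against 3 libraries allow. By its unadjusted p, Egr1 stood behind 2086 of the 2301 genes called, close to the threshold. The call was lost in 10 of 18 alternatives. It did not pass once C-Gel-light replicate 2 or 3 or FNI replicate 1, 2 or 3 was left out, nor with scaling by library totals (adjusted p = 0.09, 0.079, 0.066, 0.10, 0.13 and 0.071 by edgeR). Nor did it pass without a filter on low counts or with the replicate number as a block (adjusted p = 0.063 and 0.12 by edgeR), or by limma on log2(FPKM + 1) and log2(FPKM + 0.1) (adjusted p = 0.077 and 0.078). Over all 18 alternatives the log2 fold change was 0.89 to 1.46.

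**Figure D1:**
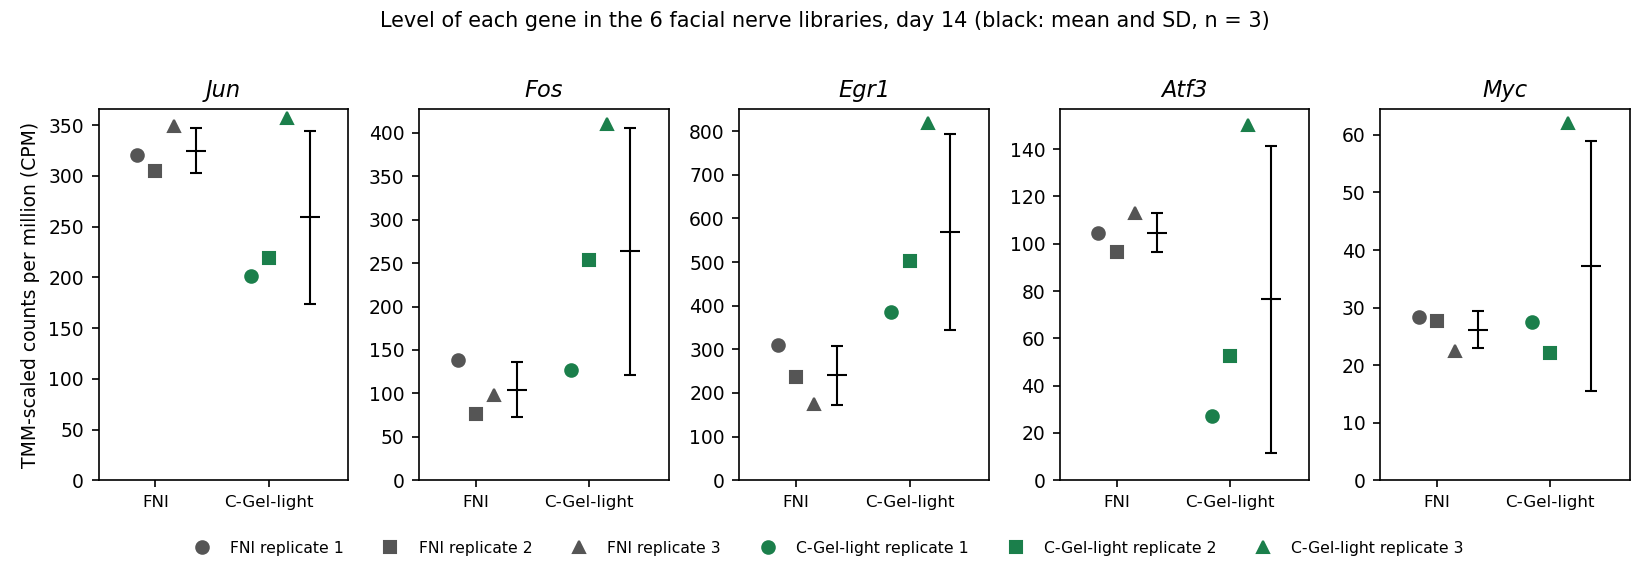
TMM-scaled CPM of each gene (vertical axis, from 0, one scale per panel) in the 3 FNI and 3 C-Gel-light libraries, with symbols for the replicates and the mean and SD (n = 3) in black. Egr1 shows no overlap between the groups, and C-Gel-light replicate 3 is the highest of its group in all 5 panels.

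Only the Egr1 window is shown, since Egr1 alone among the members had an entry in the RefSeq promoter table (GRCr8). Jun, Fos, Atf3 and Myc were not found in it. The stretch printed covers the 160 bases before the annotated start of Egr1, chr18:26736918-26737077 on the + strand of GRCr8, a later build than the mRatBN7.2 named for the deposited files. Capitals mark CArG boxes, the element that serum response factor recognises, and TGACG, part of the element that CREB and ATF proteins recognise. Both strands were searched over the 250 bases before the start, and CGTCA is TGACG read on the other strand.
Egr1: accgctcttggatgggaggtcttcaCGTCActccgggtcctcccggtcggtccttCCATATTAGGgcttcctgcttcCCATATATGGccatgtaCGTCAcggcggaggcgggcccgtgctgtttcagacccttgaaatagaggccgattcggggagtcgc

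The Egr1 window held 2 CArG boxes, CCATATTAGG at -105 to -96 and CCATATATGG at -83 to -74, counted back from the start. At least 1 such box was found in 1.5% of the 33469 promoter windows of the same length, and at least 2 in 0.0209%. TGACG matched at -135 to -131 and at -66 to -62, and 3.98% of windows held at least 2 matches. The full TGACGTCA, which contains TGACG, and the AP-1 motif TGACTCA had 0 matches in this window, against 1.59% and 4.05% of windows with at least 1. These matches describe letters in the sequence and are no measure of binding in this nerve.

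Fos, an AP-1 subunit, had 126.9, 253.6 and 410.4 CPM in C-Gel-light replicates 1 to 3. In FNI replicates 1 to 3 it had 138.6, 76.6 and 97.6 CPM. The groups overlapped, because C-Gel-light replicate 1 lay below FNI replicate 1, while the other C-Gel-light libraries lay above all of FNI. The means were 263.7 ± 142.0 and 104.3 ± 31.6 CPM (SD, n = 3 per group). The log2 fold change was 1.34 (SE 0.42, 95% interval 0.33 to 2.34), with an adjusted p of 0.078 by edgeR and an exact permutation p of 0.2. Fos passed without C-Gel-light replicate 1, its lowest C-Gel-light library, at a log2 fold change of 1.68 (edgeR adjusted p = 0.036). In that fit 3.42% of tested genes were called higher. By DESeq2 Fos passed with all 6 libraries, at 1.35 and an adjusted p of 0.0037, where 12.2% of genes were called higher.

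Jun, the partner of Fos in AP-1, was lower in 2 of the 3 C-Gel-light libraries. It had 201.4 and 219.4 CPM in C-Gel-light replicates 1 and 2, but 356.7 CPM in C-Gel-light replicate 3. The FNI libraries lay close together at 320.7, 304.6 and 348.8 CPM in replicates 1 to 3. The lowest and the highest value were thus both in C-Gel-light, and the groups overlapped. The means were 259.2 ± 84.9 CPM with C-Gel-light and 324.7 ± 22.4 CPM in FNI (SD, n = 3 per group). The log2 fold change was -0.33 (SE 0.22, 95% interval -0.84 to 0.19, edgeR adjusted p = 0.35; exact permutation p = 0.4). That interval holds no change as well as a level at 0.558 of FNI.

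Atf3 followed the same order of libraries as Jun, over a wider range. Its level was 27.0, 52.6 and 150.0 CPM in C-Gel-light replicates 1 to 3, a 5.54-fold range. In FNI replicates 1 to 3 it was 104.6, 96.4 and 113.0 CPM, a 1.17-fold range. All FNI libraries lay between C-Gel-light replicates 2 and 3. The means were 76.5 ± 64.9 and 104.7 ± 8.31 CPM (SD, n = 3 per group). The log2 fold change was -0.45 (SE 0.55, 95% interval -1.76 to 0.86, edgeR adjusted p = 0.61; exact permutation p = 0.4). Limma-voom, which averages logarithms, put it at -0.81 (adjusted p = 0.35).

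For Jun and Atf3 the outcome of the test turned on C-Gel-light replicate 3. Without it Jun was lower with C-Gel-light at a log2 fold change of -0.61 (SE 0.12, edgeR adjusted p = 0.034), and Atf3 at -1.38 (SE 0.28, edgeR adjusted p = 0.038). In that fit, with 2 libraries against 3, 4.81% of tested genes were called lower. Both estimates had to fall, since replicate 3 was the highest of its group for both genes. Jun and Atf3 also shared their order of libraries, so these are not 2 separate results. Leaving out C-Gel-light replicate 1 instead moved Atf3 to -0.04 and Jun to -0.17. Nothing in the labels sets replicate 3 apart from the other C-Gel-light libraries except its own batch number, and each of the 6 libraries has one.

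Myc had 27.5, 22.0 and 62.1 CPM in C-Gel-light replicates 1 to 3. In FNI replicates 1 to 3 it had 28.3, 27.6 and 22.4 CPM. Apart from C-Gel-light replicate 3, the libraries of both groups lay within one narrow range. The means were 37.2 ± 21.8 and 26.1 ± 3.22 CPM (SD, n = 3 per group), with a log2 fold change of 0.51 (SE 0.37, 95% interval -0.38 to 1.40, edgeR adjusted p = 0.39; exact permutation p = 0.9). Without C-Gel-light replicate 3 the log2 fold change was -0.07, so the sign of the difference in Myc came from that library.

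**Figure D2:**
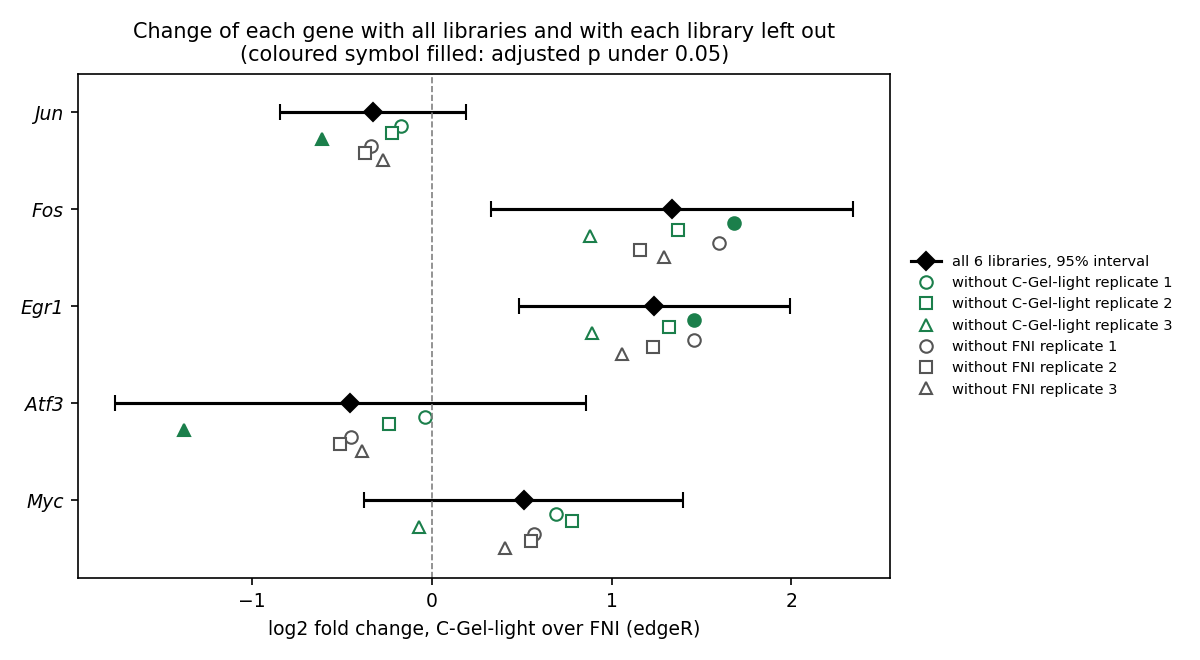
Log2 fold change of each gene, C-Gel-light over FNI (horizontal axis), with all 6 libraries (black diamonds, 95% interval) and with each library left out (coloured symbols, filled where the adjusted p was under 0.05). Jun and Atf3 have a filled symbol where C-Gel-light replicate 3 was left out, Fos and Egr1 where C-Gel-light replicate 1 was left out, and Myc has none.

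The members shared an order of libraries within the C-Gel-light group. All 5 were highest in C-Gel-light replicate 3, as were 32.6% of all tested genes. Jun, Fos, Egr1 and Atf3, 4 of the 5, were lowest in C-Gel-light replicate 1, between in replicate 2 and highest in replicate 3, an order found in 15.5% of tested genes. The TMM factors of these libraries, 0.866, 0.903 and 0.983, had the same order; the part of composition in the order of the members was not tested. The deposited FPKM values, which use no such factors, ordered the libraries alike for these 4 genes. Since the factors rise from replicate 1 to 3, this was fixed in advance and adds no support for the order. In FNI the members divided: Jun and Atf3 were lowest in replicate 2 and highest in replicate 3, while Fos, Egr1 and Myc were highest in replicate 1.

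The spread between C-Gel-light libraries was wide for the members. The SD of log2 CPM in that group was 1.24 for Atf3, 0.85 for Fos, 0.79 for Myc, 0.55 for Egr1 and 0.44 for Jun, where the median tested gene had 0.21. Atf3 varied more than 98.5% of tested genes, Fos more than 95.1%, Myc more than 94.1%, Egr1 more than 87.2% and Jun more than 81.2%. In FNI the same SD was 0.10 for Jun, 0.11 for Atf3 and 0.18 for Myc, against a median of 0.17 over tested genes. Fos, at 0.43, and Egr1, at 0.41, were the members that varied widely in FNI too, above 82.5% and 81.3% of tested genes.

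**Figure D3:**
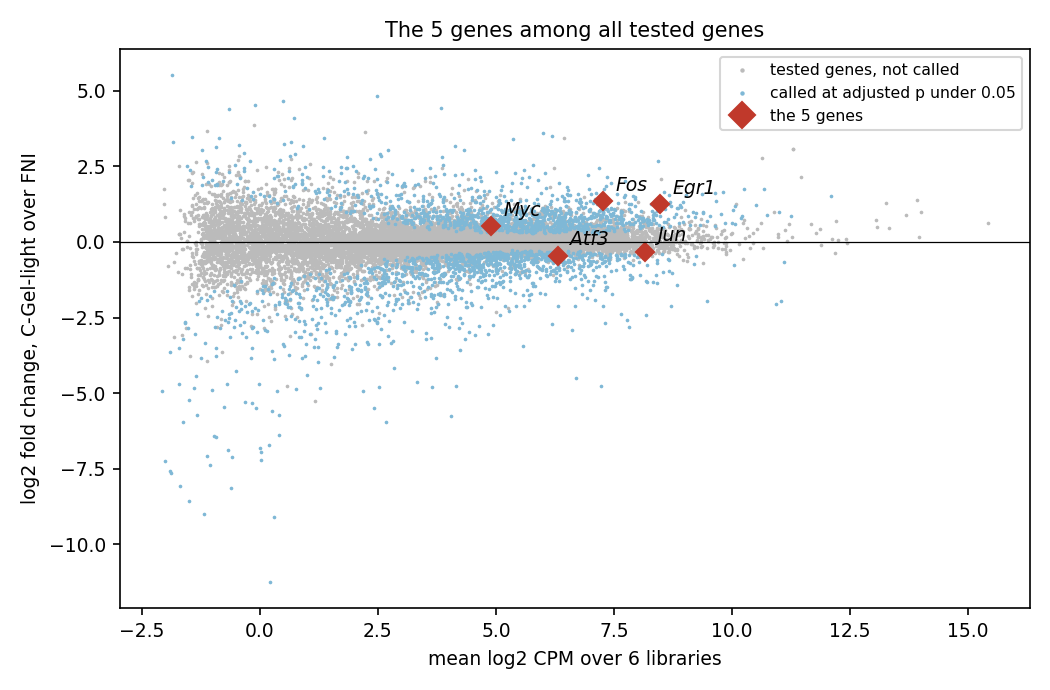
Log2 fold change, C-Gel-light over FNI (vertical axis), against mean log2 CPM (horizontal axis) for the 15581 tested genes, with genes called at an adjusted p under 0.05 in blue and the 5 members in red. Fos (1.34) and Egr1 (1.24) lie high among the abundant genes, while Jun (-0.33), Atf3 (-0.45) and Myc (0.51) lie nearer to 0.

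Set beside all tested genes, the size of the differences was large for Fos and Egr1. A log2 fold change of larger absolute size was found in 7.03% of tested genes for Fos and 8.27% for Egr1. For Myc the share was 29.5%, for Atf3 33.2% and for Jun 44.3%. The median absolute log2 fold change over tested genes was 0.28, and the median with its sign was -0.01.

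Ratios of one member to another within a library need no scaling between libraries, and they are given as a description, since none of the 10 pairs of members passed an adjusted p of 0.05 (0 of 10; the design cannot go below an unadjusted exact permutation p of 0.1). Counts were divided by the gene lengths that the authors used for FPKM, 4512 bases for Jun, 1589 for Fos, 3114 for Egr1, 1894 for Atf3 and 2339 for Myc. The ratio of Jun to Fos, the members that pair in AP-1, was 0.559, 0.305 and 0.306 in the C-Gel-light libraries, by replicate, and 0.815, 1.4 and 1.26 in the FNI libraries. Every treated library had less Jun per Fos than any FNI library, with a mean log2 ratio of -1.42 ± 0.50 against 0.17 ± 0.41 (SD, n = 3 per group), a 3.02-fold lower ratio. This is the most that 3 against 3 libraries can show by an exact permutation test, p = 0.1, or 0.14 adjusted over the 10 pairs of members. Such ratios without overlap between the groups are common here, found in 39.3% of all pairs of tested genes.

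The ratio of Jun to Egr1 gave a like picture, at 0.361, 0.301 and 0.301 with C-Gel-light and 0.713, 0.888 and 1.37 in FNI. Its mean log2 ratio was -1.64 ± 0.15 against -0.07 ± 0.48 (SD, n = 3 per group), with the same exact permutation p of 0.1. The widest contrasts were with Atf3. Fos stood at 5.59, 5.75 and 3.26 times Atf3 with C-Gel-light and at 1.58, 0.946 and 1.03 times in FNI, a 4.08-fold higher ratio on average. Egr1 stood at 8.64, 5.81 and 3.32 times Atf3 with C-Gel-light and at 1.80, 1.49 and 0.944 times in FNI, a 4.03-fold higher ratio. The groups did not overlap in either ratio (exact permutation p = 0.1 for each, 0.14 adjusted over 10 pairs).

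Fos and Egr1 kept no such distance from each other. Their ratio was 0.647, 0.989 and 0.983 with C-Gel-light and 0.875, 0.634 and 1.09 in FNI, and the groups overlapped. The mean log2 ratio was -0.22 ± 0.35 against -0.24 ± 0.39 (SD, n = 3 per group; exact permutation p = 0.9). Jun to Atf3 also overlapped, since the FNI ratios of 1.29, 1.33 and 1.30 lay inside the C-Gel-light ratios of 3.12, 1.75 and 0.998. Atf3 was thus at its lowest against Jun in C-Gel-light replicate 1, the library where both were lowest. Myc was higher against Jun, by 1.67-fold, and against Atf3, by 2.26-fold, and lower against Egr1, each with no overlap and an exact permutation p of 0.1. Fos to Myc overlapped (exact permutation p = 0.2). In all, 7 of the 10 pairs had ratios without overlap, against 39.3% of all pairs of tested genes. The 10 pairs are made from 5 genes and are not independent of each other, so the count is not read as particular to the members.

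**Figure D4:**
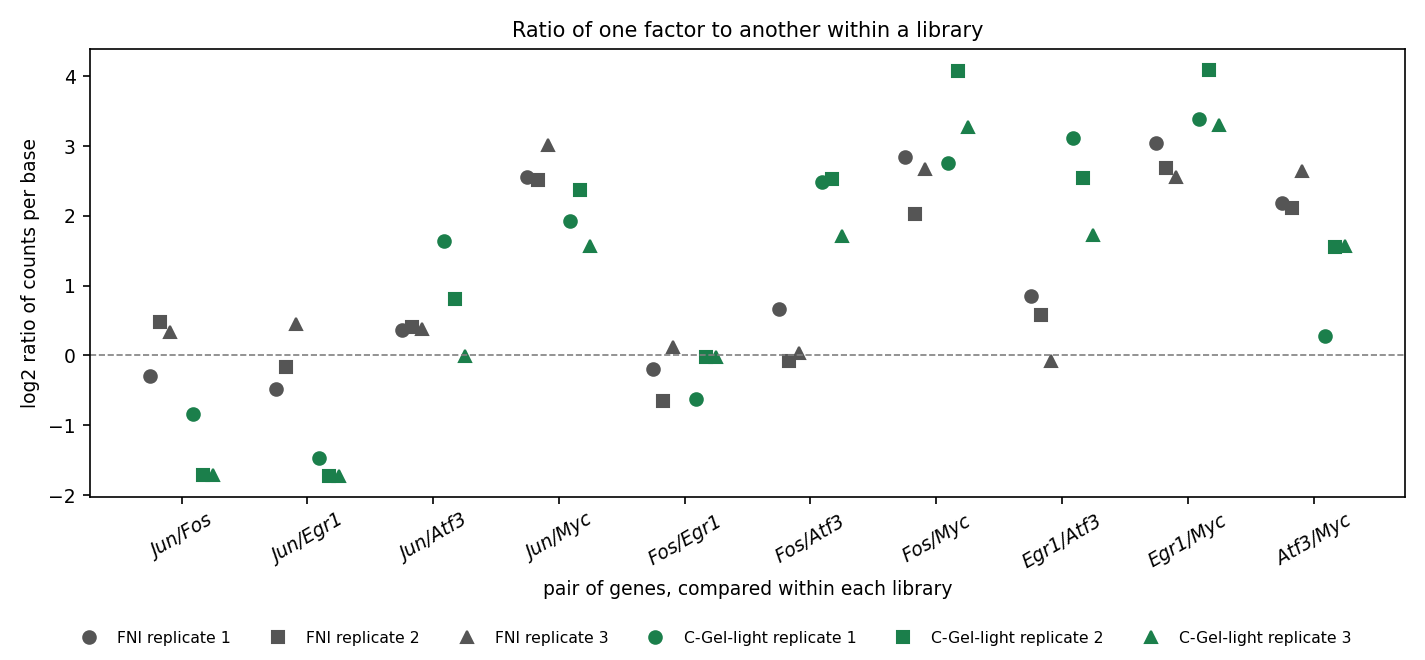
Log2 ratio of counts per base of one gene to another (vertical axis) for the 10 pairs of genes, with FNI libraries in grey and C-Gel-light libraries in green. Jun to Fos and Jun to Egr1 are lower in every C-Gel-light library, Fos to Atf3 and Egr1 to Atf3 are higher, and Fos to Egr1 overlaps.

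Levels per length place the factors against each other. By the deposited FPKM, Egr1 stood highest on average in C-Gel-light, at 170.2 ± 78.5, next to Fos at 155.7 ± 92.8. Jun followed at 53.4 ± 21.2, Atf3 at 38.4 ± 34.7 and Myc at 14.9 ± 9.71 FPKM (SD, n = 3). In each C-Gel-light library both Egr1 and Fos exceeded Jun, while neighbours in this order overlapped across libraries. In FNI 4 factors were close, with Egr1 at 84.0 ± 22.1, Jun at 78.7 ± 8.6, Fos at 71.7 ± 21.9 and Atf3 at 60.5 ± 7.19 FPKM, and their ranges overlapped from one neighbour to the next. Myc stood apart below them at 12.1 ± 1.12 FPKM (SD, n = 3).

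The leading factor differed between FNI libraries. Egr1 led in replicate 1 at 107.8 FPKM and in replicate 2 at 80.1 FPKM, while Jun led in replicate 3 at 88.0 FPKM. In C-Gel-light Egr1 led in each library, at 106.9, 145.8 and 258.1 FPKM. Fos lay close behind in C-Gel-light replicates 2 and 3, at 144.1 and 253.7 FPKM. FPKM rests on a fixed length per gene, so leads this small do not rank the 2 genes. Egr1 in C-Gel-light replicate 1 thus lay just under its FPKM in FNI replicate 1, although it lay above it in TMM-scaled CPM. Between these 2 libraries the separation of the groups thus rests on the scaling. Among tested genes the FPKM of Egr1 stood between the percentiles 95.1 and 99.2, and that of Myc between 61.5 and 86.3.

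**Figure D5:**
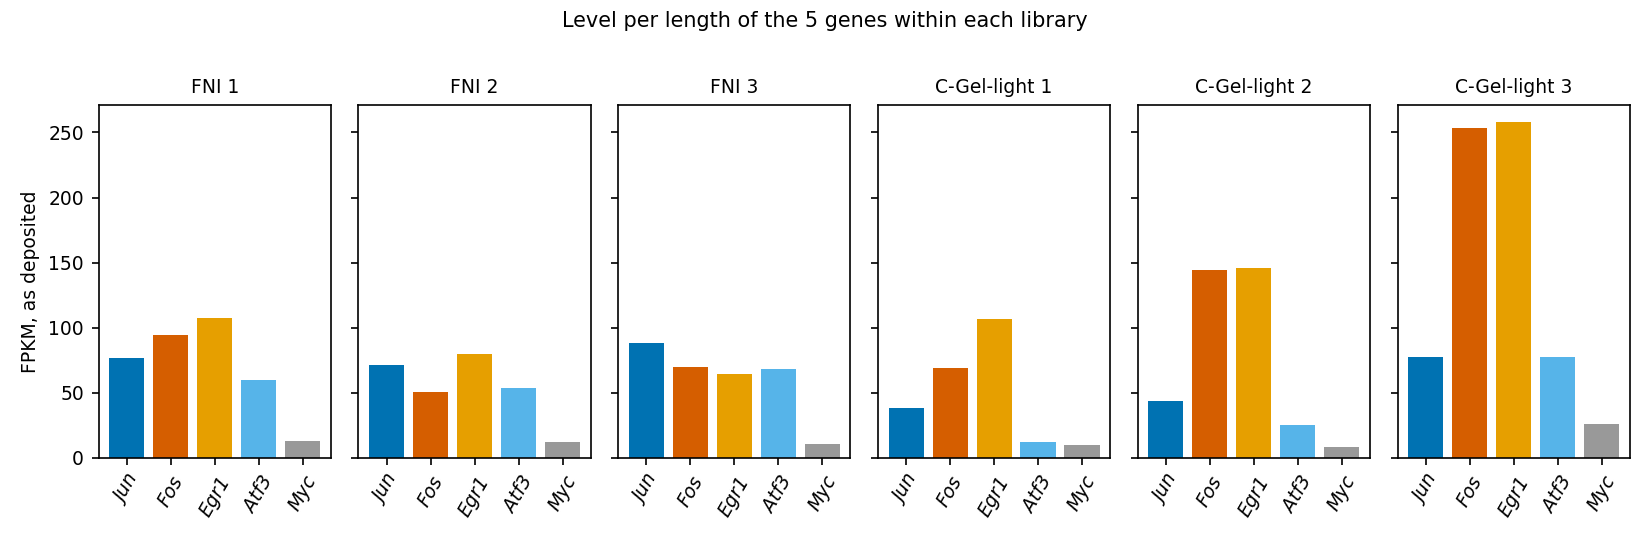
Deposited FPKM of the 5 genes (vertical axis, bars from 0) in each of the 6 libraries, one panel per library. Egr1 is the highest bar in all 3 C-Gel-light libraries and in FNI replicates 1 and 2, and Jun in FNI replicate 3, at 88.0 FPKM. Fos lies close below Egr1 in C-Gel-light replicates 2 and 3.

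By their pattern over the 6 libraries Jun paired with Atf3 and Fos with Egr1, while Myc belonged to neither pair. The likeness used was Pearson's r of log2 CPM, given as a description, because the libraries form 2 groups of 3 and a shared difference between groups or a shared library feature raises r. Jun and Atf3 had r = 0.97, and Fos and Egr1 had r = 0.93. Across these pairs r was near 0, from -0.17 for Jun and Egr1 to 0.15 for Fos and Atf3. Myc lay between, at 0.71 with Egr1, 0.65 with Fos, 0.46 with Atf3 and 0.44 with Jun.

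Genes with a pattern like that of the members were sought among 13038 genes whose log2 CPM averaged 1 or more. ENSRNOG00000058388 was most like Egr1 (r = 0.998 over 6 libraries) and had a log2 fold change of 1.31 (SE 0.33, edgeR adjusted p = 0.044). The gene most like Fos was ENSRNOG00000009389, with r = 0.99 and a log2 fold change of 0.20 (edgeR adjusted p = 0.26). For Jun it was ENSRNOG00000008764, with r = 0.99 and a log2 fold change of -0.03 (edgeR adjusted p = 0.81). For Atf3 it was ENSRNOG00000025424, with r = 0.994 and a log2 fold change of -0.17 (edgeR adjusted p = 0.51). Names of these IDs are not given in the sources used here.

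An r above 0.95 was shared with 61 genes by Jun, 52 by Egr1, 36 by Atf3, 22 by Fos and 8 by Myc. The median gene shared such an r with 43 others, so the members did not stand out by the number of genes like them, and Myc had fewer than most. Of these genes 10 were common to Jun and Atf3, which is 16.4% of those of Jun and 27.8% of those of Atf3. Another 6 were common to Fos and Egr1, or 27.3% of those of Fos and 11.5% of those of Egr1. The high r within each pair itself favours common genes, and the share for other gene pairs of like r was not computed. These counts are therefore a description and add no separate evidence for the pairs.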

How the data were processed

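The authors deposited a table of raw whole-number counts by Ensembl gene ID, and FPKM values per library that equal the counts of the members divided by the library total and a fixed gene length. The build mRatBN7.2, STAR 2.4.2a and RSEM 1.2.29 are named per the submitters' processing notes, as are fastp 0.22.0, edgeR 3.28.1 and FastQC 0.11.9, all without roles. Libraries were poly(A)-selected, per the labels' protocols.

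Genes were filtered with filterByExpr (minimum count 10). Groups were compared over all 15581 genes left by the quasi-likelihood test of edgeR 4.0.16 (R 4.3.3) with TMM factors, robust dispersions and Benjamini-Hochberg adjustment, at a threshold of 0.05. The SE is the log2 fold change divided by the square root of F, and 95% intervals use the t quantile of the fit. Log2 CPM has a prior count of 2, and ratios add 0.5 counts. Each library has its own batch number, so batch and group cannot be told apart. No pair of libraries within a group was alike within counting noise (chi-square per degree of freedom of at least 27.0).

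The members and lists were chosen with earlier results of these data known. The rule for named genes took the 5 members, genes of pathway lists and the genes most like each member, with at most 2 IDs per direction where names are lacking. None of the 30562 IDs matched a name in the RefSeq table (0 matches), so the 28 lists of pathway genes and cell type markers were not analysed here, and the labelled tissue was not checked against markers. Alternatives were DESeq2 1.42.0, limma-voom (limma 3.58.1), other factors and filters, log2 FPKM, a replicate block and leaving out each library.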

Additional observations from a re-analysis of the deposited data

How the results depend on the processing

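Over 18 alternatives per gene, Egr1 stayed called in 8 and lost its call in 10. Its log2 fold change was 1.02 with library totals, 1.24 without a filter, 0.94 and 0.95 by log2(FPKM + 1) and log2(FPKM + 0.1), and 0.89 to 1.46 without each library. Fos was called in 2 alternatives, by DESeq2 (1.35) and without C-Gel-light replicate 1, with 0.88 to 1.68 without each library. Jun and Atf3 were each called in 1, without C-Gel-light replicate 3, with ranges of -0.61 to -0.17 and -1.38 to -0.04 without each library. Myc was called in 0 of 18 by any tool, with a main unadjusted p of 0.21, and ran from -0.07 to 0.78 without each library; it reversed to -0.07 without C-Gel-light replicate 3. Leaving out a library leaves fewer samples; the other causes were not tested. All 70 alternative values of the pair ratios stayed within 1 SD, pooled over the groups, of the reported ones. For leaving out 1 of 3 libraries this was fixed in advance, since a group mean cannot move that far. The log2 ratio of Jun to Atf3, C-Gel-light minus FNI, was 0.44 with all libraries and 0.02 to 0.84 without each library. For Jun to Fos it was -1.60, and -1.89 to -1.44 without each library.

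Against 2301 genes called (1101 higher, 1200 lower), DESeq2 gave 3618 (1903 higher), library totals 3937 (645 and 3292), log2(FPKM + 1) 3752 (618 and 3134), log2(FPKM + 0.1) 3833 (626 and 3207), an adjusted p under 0.1 3876 (1909 and 1967) and a 2-fold minimum 1024 (423 and 601). Leaving out each library gave 797 to 1726 (335 to 864 higher, 462 to 889 lower).

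With the replicate number as a block, Egr1 was at 1.2 (adjusted p = 0.12 by edgeR) and no member was called. Libraries of the same number did not deviate together over all genes (correlations of -0.06, 0.03 and 0.09 across genes). No pairing by number was thus seen, but a pairing limited to some genes was not tested. Gene lists could not be counted under any alternative for want of names.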
